A study of Mus musculus with 31 samples.

Results

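The 110 genes described here had a higher level in CD4+ T cells of one pre-lymphoma group of mice than in control cells, and about the same level in the other pre-lymphoma group. They were found among 23994 gene symbols, after gene models, Rik clones and immunoglobulin and T cell receptor segments were set aside. Levels are in CPM, the count of a gene per 1000000 gene counts of its library, and differences are between group means of log2(CPM + 1). A member had a difference of 0.8 or more between the control/fusion group and control, a difference within 0.25 in either direction between the fusion/fusion group and control/fusion, and a mean of at least 8 CPM in control/fusion cells. The members were thus selected on their levels in the 8 libraries of the pre-lymphoma set, so those levels are described without a test.

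The series holds 31 RNA sequencing libraries of C57B/6 mice that model peripheral T cell lymphoma. All libraries of the pre-lymphoma set are CD4+ T cells. Control cells (TA018 and TA019) carry the genotype label CD4-Cre-ERT2(WT) and the status normal. The first pre-lymphoma group (TA020, TA021 and TA022) has a label that joins CD4-Cre-ERT2(WT) by a slash to Vav1Myo1ffl/wt;CD4CreERT2, the conditional Vav1-Myo1f fusion allele with a Cre that tamoxifen switches on. The second (TA023, TA024 and TA025) has the fusion label on both sides of the slash. The labels do not say what the slash stands for, and the names control/fusion and fusion/fusion follow it. CD4+ cells and whole spleens came from 2 further sets. In the CD4-Cre set, controls are labelled CD4-Cre(WT) (3 libraries of each tissue) and tumors CD4-CreVav1Myo1f fl/wt (4 of CD4+ cells, 3 of spleen). In the CD4-CreERT2 set, controls are labelled CD4-CreERT2 (WT) (2 of CD4+ cells, 3 of spleen) and tumors CD4-CreERT2Vav1Myo1f fl/wt (2 and 3). Cre under Cd4 control acts in developing T cells that later become CD8 T cells too, whereas the inducible form acts after tamoxifen is given. Age, tamoxifen schedule and the number of mice behind a pre-lymphoma library are not in the labels.

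The protein Vav1 passes on signals of the T cell receptor, and its own C-terminal part restrains it. In the fusion that part is replaced by sequence of Myo1f, a class I myosin of blood cells that links membranes to actin. Signals of the receptor reach nuclear receptors of the Nr4a family and Egr factors within hours. Regulatory T cells are CD4+ T cells that hold back immune responses, and Ikzf4 and Gpr83 are among the genes they express.

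Library depth was 12632196 to 29257595 gene counts for the pre-lymphoma libraries, 24480017 to 37568512 in the CD4-Cre set and 24772099 to 36879923 in the CD4-CreERT2 set. The label CD4+ T cell fits the counts, with Cd4 at 966.7 to 1057 CPM and Cd8a at 10.5 to 15.6 CPM in the pre-lymphoma set. A library stands apart: TA020 is the only female one of its set by Xist (891 CPM) and Ddx3y (0.23 CPM). The sum of 19 erythroid markers, with the member Sptb among them, was 119 to 195 CPM in control, 776 in TA020, 232 and 328 in TA021 and TA022, and 465 to 567 in fusion/fusion libraries. The sum of 24 macrophage and monocyte markers was 3296 to 4272 CPM in control, 9033 in TA020, 4437 and 5193 in the other control/fusion libraries and 3929 to 5213 in fusion/fusion. The marker Lyz2 did not follow this sum, with 395 CPM in TA020, 271.5 and 384 in TA021 and TA022, and 682.5 to 854 in fusion/fusion. The sum of 14 dendritic cell markers, with the member Ccr9 among them, was higher in both pre-lymphoma groups without overlap: 309 to 376 CPM in control, 535 to 700 in control/fusion (TA020 700, TA021 667, TA022 535) and 626 to 736 in fusion/fusion libraries. The sum of 7 MHC class II genes was 2274 to 2559, then 2910 to 3597, then 2920 to 3304 CPM. The part of these cells in the members' levels was not tested. The sum of 15 T cell identity genes was between 7755 and 9164 CPM in every library. Among the other libraries, CD4+ cells of CD4-Cre tumor VM98 stand apart with 34546 genes counted at least once, against 21702 to 24573 in the rest of that set, and with the highest share of entries given to no gene (46.0%) among the 21 libraries that list it. The number VM645 is on a CD4-Cre tumor library and on control libraries of CD4+ cells and spleen, and the labels do not say how these relate. Fewer cells of a type and less RNA per cell cannot be told apart in such bulk samples.

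Among 9382 genes that reached 8 CPM, those higher by 0.8 or more in control/fusion cells fall in 3 groups. Besides the 110 members, 212 were higher again by over 0.25 in fusion/fusion cells and 66 were lower there by over 0.25. The members' own differences had a median of 0.93 and ran from 0.80 (Nt5e) to 2.21 (Klk1), and their mean control/fusion levels from 8.14 to 300.2 CPM. All 110 had ranges that do not overlap between control and control/fusion, where 32.3% of the 9382 genes did so in the same direction. The same held for control against fusion/fusion (110 members, 37.0% of genes). Between the 2 pre-lymphoma groups 5 members had ranges that do not overlap (Nebl, Gsta4, Nucb2, Ptms and Rnf43), against 43.6% of genes. These shares follow from the rule and are given as a description. Just inside the threshold stood Nt5e (0.80), Cd44 and Ptprs (both 0.81), and just outside Pkib, Slc15a3 and Nr4a1 (each 0.80 when rounded, below 0.8). Among genes near the window, Cdh1 (0.25) was inside and Il2rb (0.25) and Aoah (-0.25) were outside.

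**Figure D1:**
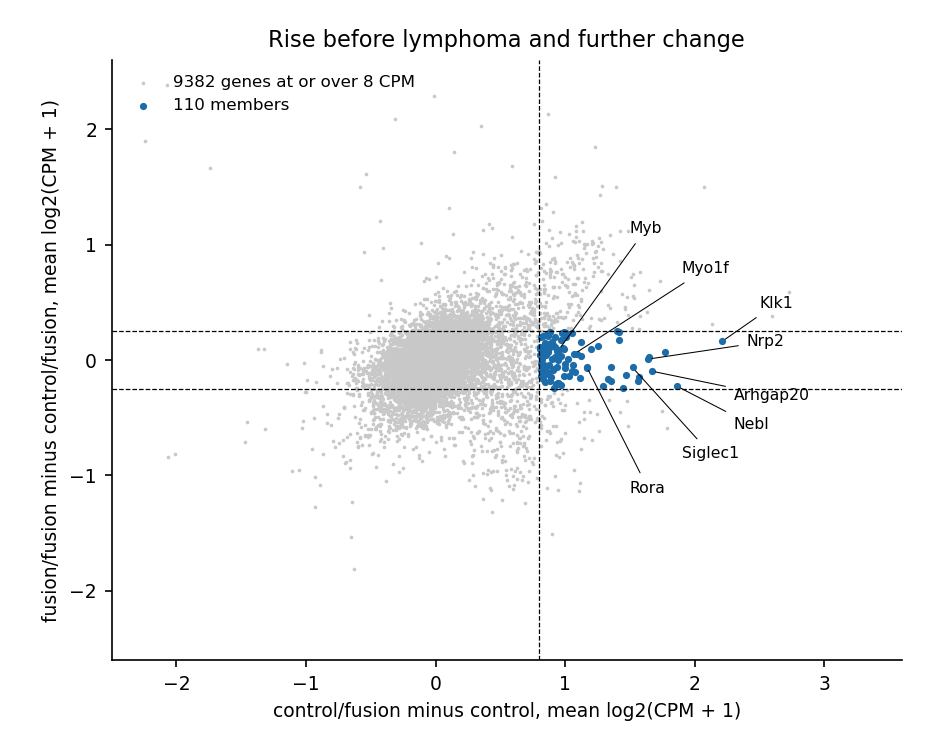
Each point is a gene with a mean of at least 8 CPM in control/fusion cells; the horizontal axis is the control/fusion minus control difference and the vertical axis the fusion/fusion minus control/fusion difference, both in mean log2(CPM + 1), with the limits of the rule as dashed lines. The 110 members (blue) fill a band right of 0.8, most of them below 1.2, with Klk1 at 2.21; 2 genes lie outside the axes.

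Myo1f (ENSMUSG00000024300; chromosome 17, 33555707 to 33607764, plus strand, GRCm38), the fusion partner, is itself a member. It stood at 81.5 and 69.4 CPM in control cells, at 150.6, 157 and 170.5 in control/fusion and at 146, 179.5 and 172.5 in fusion/fusion libraries. Both pre-lymphoma groups lie above control, as in every member, and overlap each other, with a first difference of 1.07 and a second of 0.05. A count for the whole gene holds both fused and normal Myo1f transcripts. Vav1, the other partner, is no member: it stood at 220 and 233 CPM in control, 186 to 208 in control/fusion cells, and 161 to 170 in fusion/fusion cells.

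Transcription regulators make up 11 members: Rora, Nr4a3, Egr3, Myb, Ahr, Hivep3, Trerf1, Zeb2, Hlf, Grhl1 and Ikzf4. Rora (chromosome 9, 68653786 to 69388246, plus strand), an orphan nuclear receptor of T helper 17 and tissue T cells, stood at 27.5 and 27.7 CPM in control, 60.4, 62.3 and 67.2 in control/fusion and 66.7, 56.2 and 59.7 in fusion/fusion cells. Its control libraries are nearly equal and all pre-lymphoma libraries lie above them, as in every member. Ikzf4, which encodes Eos, a partner of Foxp3, stood at 30.1 and 26.3, then 55.8, 52.5 and 54.4, then 60.2, 48.5 and 57.7 CPM. Nr4a3, a nuclear receptor induced by the T cell receptor, stood at 26.2 and 17.1, then 47.2, 48.9 and 45.05, then 41.8, 37.8 and 47.7 CPM. For both genes the pre-lymphoma groups overlap, and the highest control library lies below the lowest pre-lymphoma library, as in all 110 members. Myb, which supports the survival of effector regulatory T cells and of progenitors, differed by 0.95 and then 0.08. Hlf, a factor of blood stem cells, had the largest first difference of these 11 genes (1.56), at a control level of 2.41 and 2.19 CPM.

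Of the genes on the lists of T cell programs, few were members. Of 16 regulatory T cell genes over 8 CPM, 12 differed by 0.8 or more and 3 of these were members (Ikzf4, Gpr83 and Nt5e), while the other 9 were higher again in fusion/fusion cells. All 20 cell division genes differed by 0.8 or more and all 20 were higher again, so that none is a member. Of 15 immediate early genes over 8 CPM the members Nr4a3 and Egr3 were those with 0.8 or more. Of 9 inhibitory receptor genes 6 reached 0.8, and the member is Havcr2, with 5 higher again. No gene of 12 naive and resting T cell genes reached 0.8. Of 3 T helper 17 genes over 8 CPM all reached 0.8, with Rora a member and the other 2 lower in fusion/fusion.

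Receptors and enzymes of the lymphocyte surface number 8 members (Gpr83, Nt5e, P2rx7, Havcr2, Cd44, Jaml, Klrb1f and Ccr9). Gpr83, a G protein-coupled receptor of regulatory T cells, stood at 35.8 and 32.7 CPM in control, 66.1, 75.8 and 70.8 in control/fusion and 67.2, 58.3 and 67.9 in fusion/fusion cells. Nt5e, the enzyme CD73 that makes adenosine outside the cell, stood at 126 and 87.8, then 188.5, 178 and 186.5, then 234, 168 and 193 CPM. P2rx7, the ATP-gated channel on T cells, had 114.5 and 92.8, then 186, 173 and 198, then 234, 180.1 and 189 CPM. The step without overlap between control and control/fusion in these 3 genes is found in all 110 members. Havcr2, the inhibitory receptor Tim-3, had 11.5 and 10.6 CPM in control and 17.7 to 23.4 in all 6 pre-lymphoma libraries. Cd44, an adhesion receptor of antigen-experienced T cells, had 171 and 168 CPM in control and 272 to 354 in pre-lymphoma libraries, with TA020 the highest.

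Interferon-induced genes number 6 members (Rsad2, Mx1, Ifit3, Ifi204, Apol9a and Apol9b), and a shared run of letters was found in the promoters of 4 of them. Of 14 interferon-stimulated genes of the list over 8 CPM, 3 reached 0.8 and the same 3 are members, Rsad2, Mx1 and Ifit3. Rsad2 (chromosome 12, 26442746 to 26456452, minus strand), which encodes the antiviral enzyme viperin, stood at 7.59 and 7.42 CPM in control, 20.5, 16.2 and 17.98 in control/fusion and 15.4, 23.1 and 14.2 in fusion/fusion cells. Apol9b, an apolipoprotein L gene, stood at 8.65 and 10.4, then 28.9, 25.4 and 23.4, then 21.8, 20.8 and 25.4 CPM. Ifit3, which binds viral RNA complexes, had 16.6 and 17.5, then 27.9, 31.0 and 33.7, then 19.4, 42.4 and 26.0 CPM, so that its fusion/fusion libraries spread from close to control to the highest of all. Apol9a and Apol9b are near-identical copies, and the split of their reads is uncertain.

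Promoters, taken from RefSeq on GRCm38.p6 as 250 bases before to 50 after a start site, were matched for 81 of the 110 members. The core of the interferon response element, GAAANNGAA on either strand, was in a promoter of 14 of these 81 genes (17.3%), in 9.13% of 7533 matched genes at or over 8 CPM and in 8.56% of all 32851 promoters. It was found for Ifit3, Rsad2, Apol9a and Apol9b, and also for Arhgap21, Coro2a, Jaml, Klrb1f, Ms4a7, Nebl, Ptms, Rnase6, Tgm1 and Tspan9. The AP-1 letters TGANTCA were in 12 of 81 members (14.8%), 5.88% of the matched genes and 7.81% of promoters. The NFAT core TGGAAA was in 22 members (27.2%; 18.8% of genes; 21.4% of promoters) and the GATA letters AGATAA in 7 (8.64%; 7.51%; 11.2%). TGGAAA can share letters with GAAANNGAA, and a gene with several promoters counts when any of them matches. Apol9a and Apol9b carry the same matched letters and count as separate genes in the GAAANNGAA, TGANTCA and TGGAAA shares. A match is a run of letters and does not show that a factor binds. The promoters of 3 interferon-induced members are shown because the shared core can be seen in them, with its matches on either strand in capitals.
Ifit3, chr19:34583279-34583578, plus strand: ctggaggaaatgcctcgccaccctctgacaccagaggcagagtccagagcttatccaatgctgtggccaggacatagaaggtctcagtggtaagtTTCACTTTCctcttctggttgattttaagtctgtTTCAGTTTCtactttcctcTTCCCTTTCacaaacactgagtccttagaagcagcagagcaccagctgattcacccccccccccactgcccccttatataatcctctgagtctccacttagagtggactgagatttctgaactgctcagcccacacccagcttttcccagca
Rsad2, chr12:26456403-26456702, minus strand: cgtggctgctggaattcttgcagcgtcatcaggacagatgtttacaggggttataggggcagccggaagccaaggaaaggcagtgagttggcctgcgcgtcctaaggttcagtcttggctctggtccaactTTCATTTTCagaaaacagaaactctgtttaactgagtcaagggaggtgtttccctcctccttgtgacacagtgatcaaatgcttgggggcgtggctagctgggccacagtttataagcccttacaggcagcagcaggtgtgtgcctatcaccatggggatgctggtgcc
Apol9b, chr15:77728822-77729121, plus strand: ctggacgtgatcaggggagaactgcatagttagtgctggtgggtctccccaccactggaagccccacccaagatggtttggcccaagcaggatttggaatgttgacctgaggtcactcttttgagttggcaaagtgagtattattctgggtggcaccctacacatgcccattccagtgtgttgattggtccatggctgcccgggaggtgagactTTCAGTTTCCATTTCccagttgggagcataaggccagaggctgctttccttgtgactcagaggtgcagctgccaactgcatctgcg
Ifit3 holds 3 matches, which begin 155, 121 and 102 bases before the start site, Rsad2 holds 1 at 119 bases, and Apol9b holds 2 overlapping ones at 36 and 30 bases. The promoters of Emp1, a membrane protein gene, and Havcr2 hold the AP-1 letters, here in capitals.
Emp1, chr6:135362681-135362980, plus strand: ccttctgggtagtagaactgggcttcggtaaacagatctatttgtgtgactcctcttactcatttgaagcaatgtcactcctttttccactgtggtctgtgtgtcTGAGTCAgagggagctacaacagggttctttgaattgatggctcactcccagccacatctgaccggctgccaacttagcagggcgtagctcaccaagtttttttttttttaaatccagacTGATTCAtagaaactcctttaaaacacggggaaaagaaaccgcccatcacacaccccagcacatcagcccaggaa
Havcr2, chr11:46454681-46454980, plus strand: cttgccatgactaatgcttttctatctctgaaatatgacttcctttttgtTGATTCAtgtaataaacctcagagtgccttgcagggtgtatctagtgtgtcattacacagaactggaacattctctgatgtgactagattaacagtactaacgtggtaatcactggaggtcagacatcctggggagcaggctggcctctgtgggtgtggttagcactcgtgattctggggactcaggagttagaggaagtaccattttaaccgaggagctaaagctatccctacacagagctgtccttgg
Emp1 has 2 matches, beginning 145 and 25 bases before the start, and Havcr2 has 1 at 200 bases. Emp1 stood at 5.47 and 5.04 CPM in control and at 12.4, 15.9 and 16.99 in control/fusion cells.

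A further 5 members were Arhgap19, Arhgap20, Arhgap21, Chn2 and Srgap3. Arhgap20 stood at 3.96 and 2.15 CPM in control, 11.7, 10.6 and 12.4 in control/fusion and 11.5, 10.1 and 10.6 in fusion/fusion cells, a difference of 1.67. Chn2, a chimaerin gene, stood at 17.1 and 15.8, then 30.9, 32.6 and 31.1, then 30.4, 33.6 and 31.4 CPM. In both genes the 6 pre-lymphoma libraries lie close together, and above control, as in every member. Genes of actin, spectrin and related signalling number 11 (Abi2, Carmil1, Coro2a, Cdc42ep2, Nebl, Phactr2, Sptb, Raph1, Myo3b, Mras and Rgl1). Nebl, a nebulin-like actin-binding protein, had 7.51 and 6.65 CPM in control, 26.4, 31.0 and 27.7 in control/fusion and 25.8, 22.6 and 23.8 in fusion/fusion cells, so its second group is slightly lower without overlap. Raph1, the lamellipodin gene, and Abi2 lie 1.1 kb apart on chromosome 1 and differed by 0.87 and 0.91.

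Adhesion and guidance genes give 8 members (Cdh1, Cdh5, Nrp2, Ntn1, Ptprf, Ptprs, Ctnna1 and Itga7). Nrp2, a receptor for semaphorins and vascular growth factors, stood at 3.998 and 5.08 CPM in control, 15.1, 16.5 and 16.99 in control/fusion and 17.8, 15.5 and 15.6 in fusion/fusion cells. The second difference of Nrp2 (0.01) is among the smallest, beside a first of 1.64. Cdh5, a cadherin of endothelial cells, had 2.69 and 1.42 CPM in control and 6.29 to 10.3 in pre-lymphoma libraries. The sum of 17 stroma and endothelium markers, Cdh5 included, was 251 to 262 CPM in control, 279 to 284 in control/fusion cells, then 241 to 250 in fusion/fusion cells, and its part in the result was not tested.

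Enzymes of tryptophan breakdown appear with the receptor for its products. Kmo (chromosome 1, 175620381 to 175662116, plus strand), kynurenine monooxygenase, stood at 19.2 and 14.2 CPM in control, 34.4, 42.2 and 28.2 in control/fusion and 39.9, 31.6 and 33.4 in fusion/fusion cells. Kynu, kynureninase, stood at 4.65 and 4.31, then 7.38, 12.2 and 8.24, then 11.6, 11.2 and 10.1 CPM. Ahr, the aryl hydrocarbon receptor, to which kynurenine binds, stood at 16.3 and 11.7, then 24.04, 26.8 and 24.5, then 28.4, 25.6 and 23.8 CPM. The 3 genes separate control from all pre-lymphoma libraries, as all 110 members do, and TA020 is the highest of control/fusion in none of these 3. The sum of dendritic cell markers was also higher in both pre-lymphoma groups (309 to 376, 535 to 700 and 626 to 736 CPM), and its part here was not tested. Of 6 genes over 8 CPM on a kynurenine list, made after the members were seen, the other 3 (Haao, Qprt and Kyat1) differed by 0.10, -0.24 and -0.30. Ido1 and Ido2, which open the pathway, stood below 0.7 CPM in all 8 libraries. Detoxification and metabolic enzymes add 5 members (Gsta4, Gsto1, Ephx1, Sord and Gatm), led by the glutathione transferase Gsta4, with a first difference of 1.45.

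Genes of phagocytes, their receptors and lysosomes form the largest named group, with 18 members (Siglec1, Ms4a7, Tyrobp, Grn, Ctsh, Scpep1, Csf2rb, Csf2rb2, Ptafr, Alox5ap, Il18, Il18bp, Lgals3bp, Dnase1l3, Pld4, Rnase6, Tmem176a and Tmem176b). Siglec1 (chromosome 2, 131069220 to 131086765, minus strand), the sialic acid receptor of tissue macrophages, stood at 10.7 and 15.9 CPM in control, 72.3, 31.9 and 26.0 in control/fusion and 45.6, 37.1 and 30.9 in fusion/fusion cells. Tyrobp (chromosome 7, 30413760 to 30417585, plus strand), the adaptor DAP12, stood at 70.2 and 81.3, then 179, 116 and 126, then 121, 142 and 122 CPM. Ms4a7, a membrane protein of macrophages, stood at 4.89 and 5.61, then 29.8, 10.6 and 13.5, then 17.7, 14.7 and 12.3 CPM. In all 3 genes TA020 is the highest library of the set and the others still lie above control. TA020 was the highest control/fusion library in 15 of the 18 genes, where the macrophage marker sum is also highest in TA020. Of the 23 macrophage and monocyte markers over 8 CPM on the list, 6 reached 0.8 and none is a member. The part of these cells in the 18 genes was not tested. Csf2rb and Csf2rb2 are near-identical copies 20031 bases apart on chromosome 15, and Tmem176a and Tmem176b overlap on chromosome 6, so the split of their reads is uncertain.

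**Figure D2:**
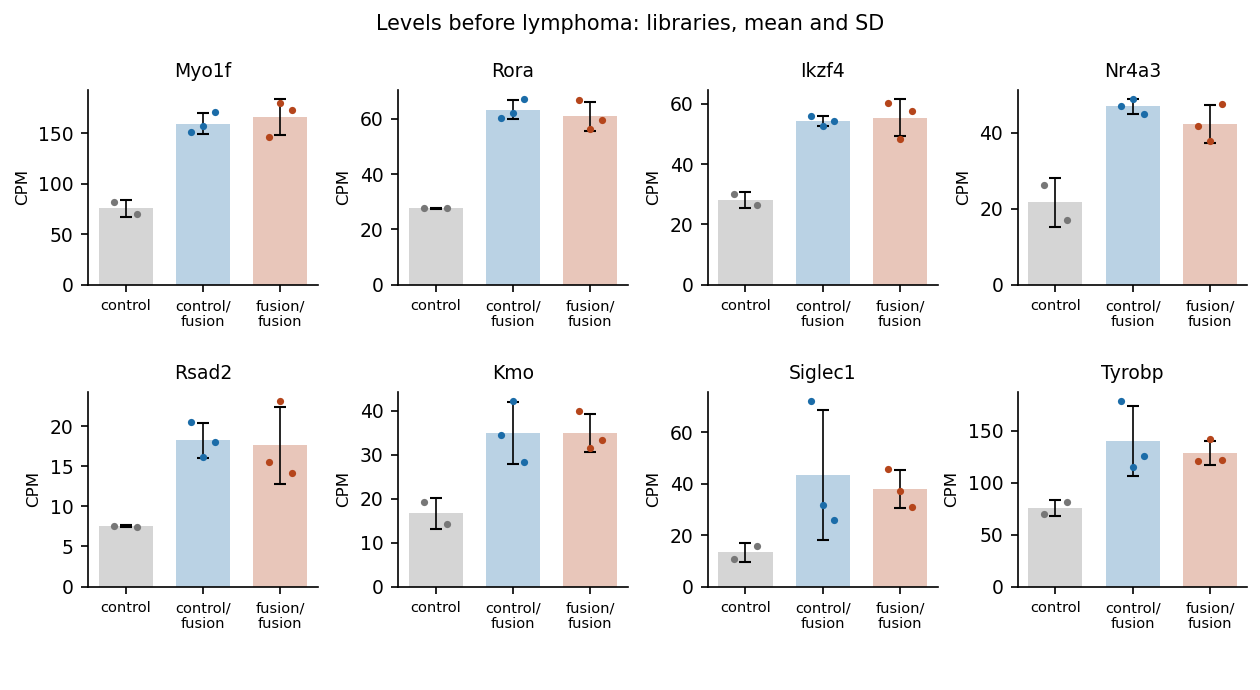
Levels of 8 members in the 8 pre-lymphoma set libraries, in CPM: bars are group means, error bars the SD (n = 2, 3 and 3) and points the libraries. In all 110 members both pre-lymphoma groups lie above control without overlap, and in Siglec1 and Tyrobp the TA020 library (72.3 and 179 CPM) stands above the rest.

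The other 35 members follow no single theme: Klk1, Adam11, Trpm1, Tspan9, Emp1, Tmcc2, Itih5, Ncmap, Sh3bgrl2, Ryr1, Nucb2, St6galnac3, Hebp1, Pdgfb, Mreg, Tbc1d8, Ppfia4, Reck, Gab2, Prg4, Itpripl2, Gpr137b, Rogdi, Prxl2b, Adam19, Tgm1, Fam129a, Pmaip1, Gfod1, Zfp385a, Cemip2, Ptms, Rnf43, Prnp and Cryzl2. Klk1 (chromosome 7, 44225360 to 44229618, plus strand), tissue kallikrein, a serine protease that releases kinins, stood at 3.79 and 4.11 CPM in control, 27.6, 24.6 and 15.4 in control/fusion and 29.1, 23.1 and 22.2 in fusion/fusion cells. Adam11, a metalloproteinase-like membrane protein, stood at 10.1 and 6.23, then 31.5, 41.7 and 19.4, then 33.5, 28.7 and 31.3 CPM. The lowest pre-lymphoma library of Klk1 is more than 3 times its highest control library. Pmaip1, the BCL2 family protein Noxa, differed by 0.86 and then 0.08. Of the 110 members, 109 have 1 entry in the GENCODE annotation of GRCm38 (Prxl2b has none), 108 are protein coding and they lie on 19 chromosomes.

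The membership of many genes rests on TA020. TA020 was the highest of the 3 control/fusion libraries in 65 of 110 members (59.1%) and in 34.9% of the 9382 genes. Without it the rule gives 69 genes, 60 of them members, while leaving out any other library kept 77 to 99 members. Since the split into staying and leaving members is made by the rule without TA020, their medians are a description. The 60 that stay had medians of 0.98, 1.02 and 0.92 above the control mean in TA020, TA021 and TA022, and 1.05, 0.995 and 0.98 in the fusion/fusion libraries. The 50 that leave had 1.27, 0.78 and 0.74, then 0.96, 1.04 and 0.85. By role, 9 of 11 transcription regulators and both kynurenine enzymes stay, against 4 of 18 phagocyte genes. A set of 21 members remained without each of the 8 libraries in turn and with scaling by TMM, a trimmed mean of ratios between libraries: Adam19, Arhgap20, Arhgap21, Chn2, Ctnna1, Emp1, Gpr83, Havcr2, Ikzf4, Kmo, Myb, Myo1f, Ncmap, Nr4a3, Nrp2, Pdgfb, Raph1, Rora, Srgap3, St6galnac3 and Tmem176a.

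**Figure D3:**
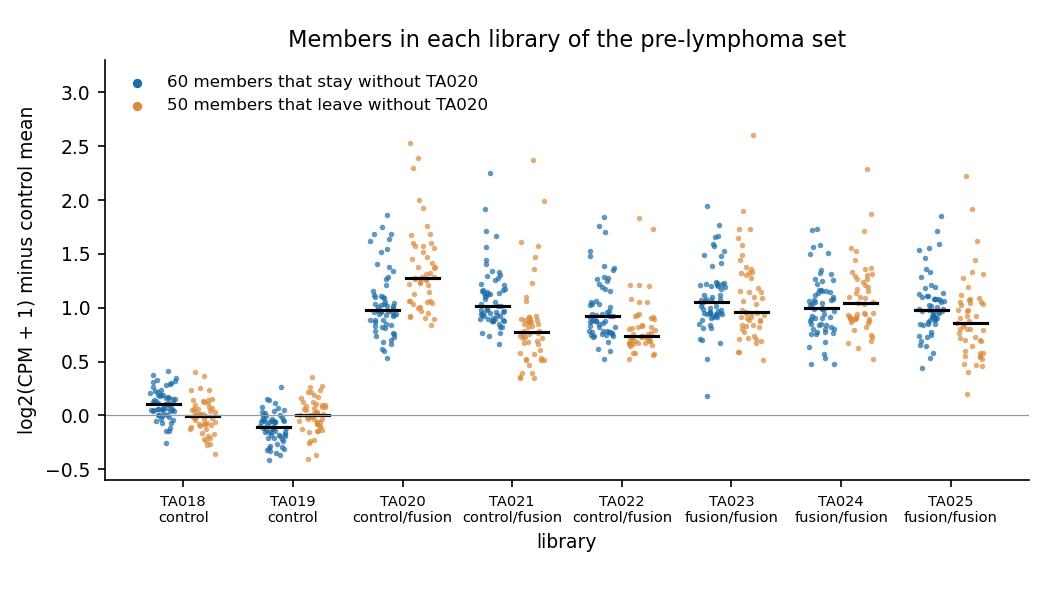
Each point is a member in a library of the pre-lymphoma set; the vertical axis is log2(CPM + 1) minus the mean of the 2 control libraries, and black lines are medians. Members that leave without TA020 (orange) have a median of 1.27 in TA020 and 0.78 and 0.74 in TA021 and TA022, while the 60 that stay (blue) lie between 0.92 and 1.02 there; the split itself was made by leaving out TA020.

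CD4+ cells and whole spleen of CD4-Cre control mice show where the members are found in mice without the fusion, in libraries that did not choose them. By edgeR's quasi-likelihood test, adjusted over all genes, 31 of 110 members were higher in CD4+ cells (12.9% of all genes tested) and 16 were higher in whole spleen (12.8% of all genes), which is 63 not called. The members' median log2 fold change was 0.34 against -0.02 for all genes. Rora stood at 97.4, 83.4 and 79.5 CPM in CD4+ cells and 12.7, 10.3 and 9.77 in spleens of the 3 mice, a log2 fold change of 2.63 ± 0.12 (SE; adjusted p = 8.9e-05). Ikzf4 stood at 38.8, 37.0 and 33.5 CPM against 2.62, 3.78 and 3.64 (3.07 ± 0.21; adjusted p = 0.00017). All CD4+ libraries of both genes lie far above all spleens. Gpr83 had 15.8, 20.02 and 35.02 against 1.34, 2.75 and 4.10 CPM (2.74 ± 0.50; adjusted p = 0.0075). Itga7, an integrin chain for laminin (3.40 ± 0.52; adjusted p = 0.0040), Ncmap (3.39 ± 0.29; adjusted p = 0.00040) and Sptb, beta spectrin (3.12 ± 0.77; adjusted p = 0.023), were the other members of largest difference. Sptb was low in both tissues, at 1.145, 3.92 and 2.045 CPM in CD4+ cells and 0.45, 0.10 and 0.09 in spleens. Its call was lost without the CD4+ cells of VM216 (edgeR adjusted p = 0.092), the spleen of VM216 (adjusted p = 0.072) or the spleen of VM645 (adjusted p = 0.071).

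On the spleen side stood members of the phagocyte group. Tyrobp had 379, 604 and 427 CPM in CD4+ cells and 1035, 1375 and 1106 in spleens, a log2 fold change of -1.68 ± 0.21 (adjusted p = 0.0018). Alox5ap, which feeds arachidonic acid to leukotriene synthesis, had 25.1, 38.4 and 19.3 against 60.8, 116 and 89.3 CPM (-2.06 ± 0.31; adjusted p = 0.0038). Their spleen libraries all lie above their CD4+ libraries. Rnase6 (-1.36 ± 0.16; adjusted p = 0.0014), the cathepsin Ctsh (-1.34 ± 0.15; adjusted p = 0.0012), the receptor Ptafr for platelet-activating factor (-1.29 ± 0.16; adjusted p = 0.0019) and the calcium channel gene Ryr1 (-1.28 ± 0.22; adjusted p = 0.0063) followed. By role, 6 of 11 transcription regulators were higher in CD4+ cells and 1 (Zeb2) in spleen, 5 of 11 actin and spectrin genes and 3 of 8 adhesion genes were higher in CD4+ cells and none in spleen, and 7 of 18 phagocyte genes were higher in spleen and 1 in CD4+ cells. The list of macrophage markers did not share this order: 8 of 24 were higher in CD4+ cells and 1 in spleen, beside a sum of 7315 CPM or more in CD4+ cells and 12980 or more in spleens. The marker Lyz2 alone stood at 1889 to 3828 CPM in CD4+ cells and 10780 to 18020 in spleens. Of the 2 kynurenine enzymes 0 were called higher in CD4+ cells and 1 in spleen. Kmo stood at 82.5, 119 and 65.1 CPM in CD4+ cells and 84.9, 103 and 84.8 in spleens. Kynu stood at 13.8, 18.9 and 11.8 against 23.4, 19.4 and 17.8 CPM. Siglec1 was not called (0.86 ± 0.48; adjusted p = 0.23), with 8.47, 15.1 and 28.9 CPM in CD4+ cells against 5.67, 6.26 and 10.5. Myo1f was not called either (-0.08 ± 0.19; adjusted p = 0.79).

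By their numbers, CD4+ and spleen libraries come from the same 3 mice. With mouse number as a block, 37 members were higher in CD4+ cells and 26 in spleen, and the share of all genes in that fit is not given. With scaling by the sum of gene counts, an alternative chosen after the data were seen, the median of all genes moved to 0.34 and that of members to 0.70, and the split was 48 and 9, beside 29.8% and 6.49% of all genes. Without the spleen of mouse VM216, 10 members were higher in spleen, again without a share of all genes.

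**Figure D4:**
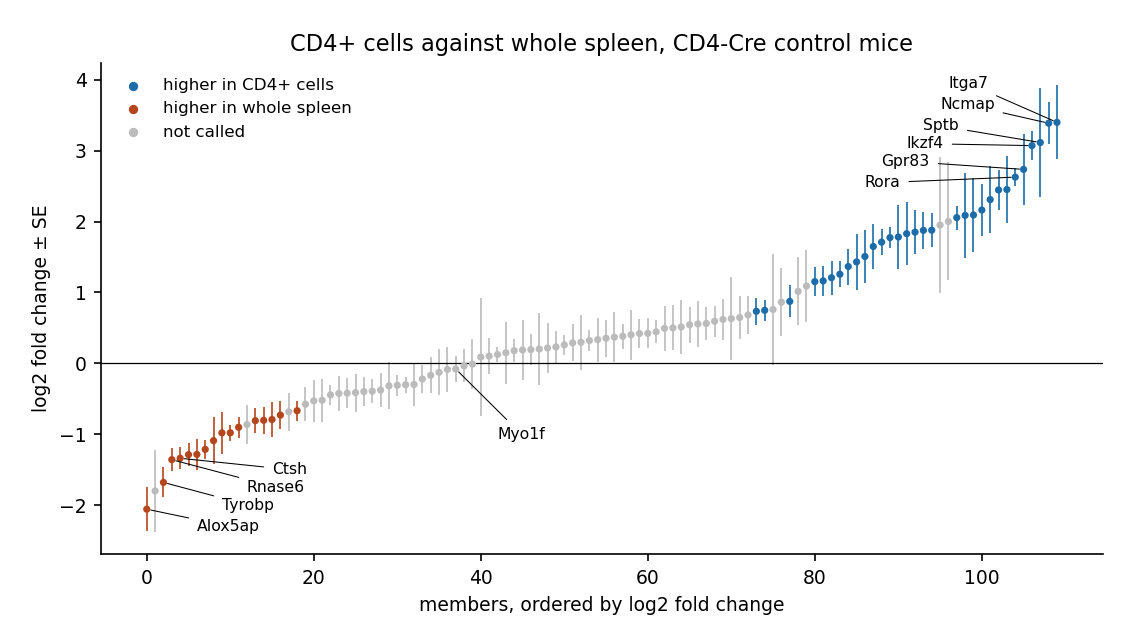
Log2 fold change of CD4+ cells against whole spleen (vertical axis, with SE bars) for the 110 members in order of that value, in CD4-Cre controls (n = 3 and 3). Blue marks 31 members higher in CD4+ cells, led by Itga7 at 3.40, red 16 higher in spleen, led by Alox5ap at -2.06, and grey 63 that were not called.

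In tumor cells of the CD4-Cre model few members differed from control by the same test. Of 110 members 0 were called higher (0.0168% of all genes) and 1 lower (0.14% of all genes). At an unadjusted p under 0.05 there were 9 higher and 27 lower, where 7.8% and 7.33% of all genes were. DESeq2 called 7 and 16 members, and 609 and 562 of all genes. The member called was Klk1, at 30.3, 37.0 and 26.4 CPM in control CD4+ cells and 1.34, 0.96, 1.06 and 3.43 in tumor cells, a log2 fold change of -4.12 ± 0.53 (edgeR adjusted p = 0.040). All 4 tumor libraries of Klk1 lie below all controls, the opposite of the order of control and pre-lymphoma cells. No member was called lower without control VM211, VM216 or VM645 or tumor VM388 or VM58, although the log2 fold change of Klk1 stayed between -4.20 and -3.89 in these fits (edgeR adjusted p = 0.063 to 0.21). The same held with a term for sex (-4.21; adjusted p = 0.12), which is partly mixed with status (2 of 3 controls and 1 of 4 tumors are male). Without tumor VM98, the library with the most genes counted, 7 members were higher and 4 lower, and without tumor VM645, 4 were lower. The share of all genes called in those fits is not given, so these counts describe the members only. The median log2 fold change of members was -0.24, against 0.06 for all genes.

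The 31 members higher in CD4+ than in spleen of controls had a median of 0.35, with 22 above 0, and the 16 higher in spleen a median of -1.21, with 3 above 0. Both comparisons share the control CD4+ libraries, so their relation is not a result. Transcription regulators had a median of 0.61, with 9 of 11 above 0, and the phagocyte genes -0.77, with 2 of 18 above 0. Of all members 48 of 110 were above 0, and of all genes 54.2%. These roles were given after the values were seen, so the contrast is a description. The sum of 24 macrophage markers was 926 to 6077 CPM in tumor CD4+ cells and 7315 or more in controls. That of 14 dendritic cell markers was 287 to 608 against 920 to 1263 CPM, and that of 7 MHC class II genes 1121 to 8355 against 8846 CPM or more. Their part in these results was not tested. Tyrobp stood at 145, 235.7, 28.9 and 96.5 CPM against 379, 604 and 427 in controls (-1.91 ± 0.54; edgeR adjusted p = 0.17). Kmo stood at 20.02, 24.5, 1.13 and 4.13 CPM against 82.5, 119 and 65.1 (-2.88 ± 0.83; adjusted p = 0.18). For both genes every tumor library is below every control, although neither was called. Ikzf4 had 37.7, 66.9, 147 and 43.1 CPM against 38.8, 37.0 and 33.5 (1.09 ± 0.49; adjusted p = 0.35), with 1 tumor library inside the control range. Rora had 125, 84.7, 130.4 and 141 against 97.4, 83.4 and 79.5 CPM (0.54 ± 0.24; adjusted p = 0.34).

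In CD4-Cre spleens 0 of 110 members were called higher and 0 lower by edgeR (0.0% of all genes in each direction), with 12 and 10 at an unadjusted p under 0.05 (8.13% and 5.79% of all genes) and 3 and 3 by DESeq2 (325 and 269 of all genes). Without tumor spleen VM98, 2 were higher and 5 lower, and the share of all genes in that fit is not given. Siglec1 stood at 74.7, 152 and 8.06 CPM in tumor spleens and 5.67, 6.26 and 10.5 in controls (3.03 ± 0.86; edgeR adjusted p = 0.25), so that tumor VM98 lies within the controls. Klk1 stood at 0.23, 1.22 and 0.16 against 9.27, 4.50 and 6.13 CPM (-3.89 ± 0.77; adjusted p = 0.21), again with no overlap. A test of the difference between the 2 tissues in their tumor effects called 0 members higher and 0 lower (0.0% of all genes in each direction), with 1 and 6 at an unadjusted p under 0.05 (3.53% and 3.79% of all genes) and 0 and 0 by DESeq2 (15 and 16 of all genes).

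In the CD4-CreERT2 model the members' median was above that of all genes in both tissues, and no member was called. In CD4+ cells edgeR called 0 of 109 members tested higher and 0 lower (0.0% of all genes in each direction), with 23 and 2 at an unadjusted p under 0.05 (3.96% and 1.21% of all genes) and 5 and 0 by DESeq2 (257 and 42 of all genes). Their median was 0.45 against 0.01 for all genes. Without either tumor library a lone one is left, so counts of members in such fits are not a result. In spleens edgeR called 0 of 107 members higher and 0 lower (0.0% of all genes in each direction), with 25 and 5 at an unadjusted p under 0.05 (13% and 7.05% of all genes) and 19 and 3 by DESeq2 (1359 and 401 of all genes). Without tumor spleen VM236, 10 were higher and 3 lower, and the share of all genes in that fit is not given. The median of members was 0.43 against -0.02 for all genes, and with scaling by the sum of gene counts -0.02 against -0.46. Controls of this model are all female, and tumors VM231 and VM294 are male, so sex and status are partly mixed.

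Of 18 phagocyte genes 17 were above 0 in either tissue of this model, with medians of 0.75 in CD4+ cells and 1.77 in spleen. Of all genes 50.8% and 49.4% were above 0. Of 11 transcription regulators 5 were above 0 in CD4+ cells and 6 in spleen, with medians of -0.26 and 0.08. Siglec1 stood at 1.82 and 8.22 CPM in tumor CD4+ cells and 0.18 and 0.08 in controls (5.13 ± 0.97; edgeR adjusted p = 0.84). Alox5ap stood at 448, 66.3 and 922 CPM in tumor spleens and 24.8, 31.4 and 27.3 in controls (4.89 ± 1.08; adjusted p = 0.12). Both genes show tumor libraries above all controls. The sum of macrophage markers was also higher, at 4027 and 8652 CPM in tumor CD4+ cells against 766 and 1507, and from 6516 CPM in tumor spleens against 1836 to 2212. The marker Lyz2 alone stood at 11760, 3166 and 7739 CPM in tumor spleens VM231, VM236 and VM294, against 1341 to 1486 in controls. Sums of the 3 tumor spleens were 6516, 8958 and 13800 CPM. The sum thus rests largely on Lyz2 in VM231 and VM294, and less so in VM236. The sum of 10 neutrophil markers was 102 and 6097 CPM in tumor CD4+ cells against 47.3 and 69.7, and 2555 CPM or more in tumor spleens against 410 to 894. The part of these cells was not tested. Myo1f stood at 475 and 335 CPM in tumor CD4+ cells and 213 and 235 in controls (0.87 ± 0.35; edgeR adjusted p = 0.99). Without tumor VM236 its log2 fold change was 1.22, from the lone male tumor library VM231 against female controls. In tumor spleens Myo1f stood at 791.5, 415 and 91.5 CPM against 277, 246 and 235 (1.16 ± 0.64; edgeR adjusted p = 0.34). Its spleen libraries spread to both sides of the controls. Klk1 stood at 11.1 and 13.9 CPM in tumor CD4+ cells and 2.14 and 15.3 in controls (0.49 ± 0.88; edgeR adjusted p = 0.9998), with tumors inside the control range. Members higher in CD4+ cells of CD4-Cre controls had a median of 0.07 in tumor CD4+ cells here, and the 16 higher in spleen 0.68, with 13 above 0.

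**Figure D5:**
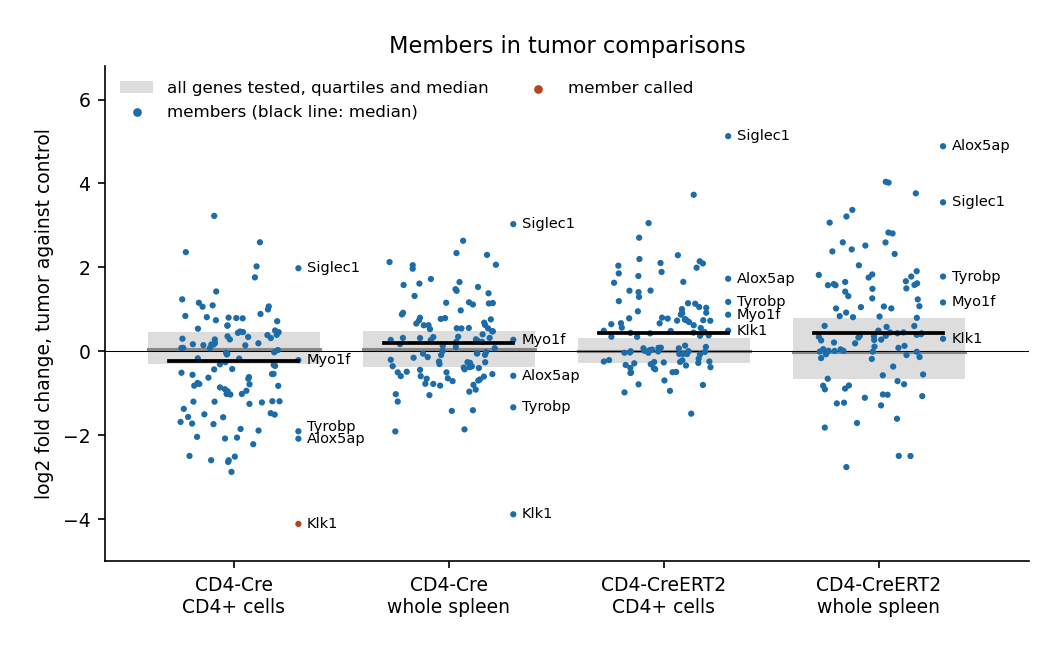
Log2 fold change of tumor against control (vertical axis) for members in 4 comparisons; points are members, black lines their medians, grey boxes the quartiles of all genes tested and grey lines their medians. The members' medians are -0.24, 0.20, 0.45 and 0.43 from left to right, and Klk1 in CD4-Cre CD4+ cells is the point marked as called.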

How the data were processed

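The authors deposited 1 table of raw read counts per gene for each of the 31 libraries. Per the labels' protocols, RNA was taken with the RNeasy Micro kit, turned into cDNA by the SMART-Seq method and sequenced on an Illumina HiSeq. The submitters' processing notes name HISAT2 2.1.0, HTSeq 0.5.4 and builds mm10 and GRCm38; annotation and strand are not given in the sources used here. Rows that name no gene (27.2% to 46.0% of entries in the 21 libraries that list them) were left out.

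CPM was computed from the deposited counts. Tumor and tissue comparisons used edgeR 4.0.16 (filterByExpr, TMM scaling, quasi-likelihood F test, two-sided, Benjamini-Hochberg over all genes, 0.05), each on its own groups, with DESeq2 1.42.0 as an alternative. The fit was tested on simulated data. SE is the fold change over the square root of F. Reads were amplified and carry no molecular identifier, so they are not independent molecules. Nothing in the labels says that the numbered libraries of a group are independent beyond their mouse numbers, so p-values reflect only how far these libraries spread, which may be technical.

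The members and gene lists were chosen with earlier results of these data known. Roles and the kynurenine list were made after the values were seen. One gene list is not reported here. Names follow a rule: members on a gene list, the 12 of largest difference, up to 6 called per comparison and direction, the 3 nearest each side of the threshold, and Myo1f. Other names were chosen after their values were seen.

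Same-numbered CD4+ and spleen libraries of CD4-Cre controls were taken to come from the same mouse, by their numbers. Their deviations from group means correlated across 9930 genes at 0.633, 0.526 and 0.548, and those of different numbers at -0.479 to -0.121. Deviations from a group mean sum to 0, so positive values for same-numbered libraries push the others below 0.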

Additional observations from a re-analysis of the deposited data

Results flagged for a closer look

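In CD4+ cells of CD4-Cre tumors, the only group with 4 libraries, 38 named members were tested for a library apart. Smaller groups were not tested. There 1 was found, and chance alone gives about 1 in 20 groups. Alox5ap stood at 1.33 CPM in CD4+ cells of CD4-Cre tumor VM645, against 7.11, 7.96 and 9.32 CPM in the other 3 tumors, and on the log2(CPM + 1) scale the gap to the nearest takes 0.838 of the range.

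Between the tumor models 4 of the 38 named members had all tumor libraries on opposite sides of their controls, in CD4+ cells, in spleen or in both, and none of these differences was tested. Over the 109 members with a value in every library there were 8 such genes in CD4+ cells and 3 in spleen. The share of all genes was not counted, so these counts are not a result about the members. Tyrobp was lower in CD4-Cre tumors (log2 fold change -1.91 in CD4+ cells and -1.34 in spleen) and higher in CD4-CreERT2 tumors (1.18 and 1.78). Alox5ap in CD4+ cells was at -2.08 in the first model and 1.73 in the second. Rsad2 in spleen was at -0.914 and 2.83. Ptprs, a receptor tyrosine phosphatase, went the other way in spleen, at 1.48 in the CD4-Cre and -1.07 in the CD4-CreERT2 model. The sum of 24 macrophage markers was lower in tumor than in control CD4+ cells of the first model (926 to 6077 against 7315 CPM or more) and higher in the second (4027 and 8652 against 766 and 1507 CPM), and its part in these results was not tested.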

How the results depend on the processing

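The rule gave 226 genes with a threshold of 0.6, 37 with 1.0, 180 with a window of 0.4, and 69 to 139 without each library in turn; the other settings kept the number within 1.5 times of 110. Counts of members called below are given without the share of all genes, unless stated, and describe the members only. For CD4+ cells of the CD4-Cre model, 4 members were higher and 14 lower without the filter on low counts. With DESeq2 these were 7 and 16, beside 609 and 562 of all genes, where edgeR called 3 and 25 of all genes. Members lower were 4 with all 4 groups in the fit, 0 with a term for sex and 0 without the libraries numbered VM645. Leaving out 1 library gave 0 to 7 higher and 0 to 4 lower. For CD4-Cre spleen the counts were 1 and 2 without the filter, 3 and 3 with DESeq2, and 0 to 2 and 0 to 5 without 1 library. For CD4-CreERT2 CD4+ cells 1 was higher without the filter and 5 with DESeq2, and leaving out 1 library gave 0 to 23 and 0 to 12. Each fit of CD4-CreERT2 CD4+ cells without 1 library leaves a lone library in a group, so its counts are not a result. For CD4-CreERT2 spleen 7 were higher without the filter, and 19 higher and 3 lower with DESeq2. Without 1 library 0 to 10 were higher and 0 to 3 lower there. Between CD4+ cells and spleen of controls, 48 members were higher and 9 lower with scaling by the sum of gene counts, 10 to 15 lower without 1 library, and 37 higher and 26 lower with the replicate block, that is pairing by mouse, under which Rora, Ikzf4, Gpr83, Itga7, Ncmap, Sptb, Tyrobp, Alox5ap, Rnase6, Ctsh, Ptafr and Ryr1 were still called. Myo1f changed sign, uncalled in these fits, in CD4-Cre spleen without tumor VM98 (-0.32; range without 1 library -0.32 to 0.63), between the tissues with scaling by the sum of gene counts (0.29) and without CD4+ control VM645 (0.13; range -0.20 to 0.13), and in the interaction without tumor spleen VM98 (0.20; range -0.83 to 0.20). That scaling moved the median of all genes in CD4-Cre spleen to 0.24, in CD4-CreERT2 spleen to -0.46 and in the interaction to -0.30. The cause was not tested. Few libraries per group and a pre-lymphoma set that is partly less deep limit what can be seen. With 2 control libraries, the lower end of each difference rests on these alone, and the single female library cannot be told apart from its other features.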

Other observations

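Whole spleen of CD4-CreERT2 tumor VM294 had Cd3e at 16.4 CPM and Cd4 at 6.11 CPM, against 101 and 131.5 CPM of Cd3e and 104.5 and 62.2 CPM of Cd4 in the other 2 tumor spleens. In the same spleen Alox5ap stood at 922 CPM, the highest of all libraries, while Ikzf4 stood at 0.20 and Itga7 was at 0 CPM.

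Apol9b was uneven among CD4-Cre tumors. It stood at 28.5, 55.7 and 88.7 CPM in CD4+ cells of tumors VM388, VM58 and VM645, at 0.04 CPM in tumor VM98, and at 5.94 to 9.76 CPM in controls. Rsad2, of the same interferon-induced group, stood at 25.6, 24.2, 5.09 and 8.50 CPM in these tumors and 16.3 to 28.4 CPM in controls, so the genes differ in their order over the 4 tumors.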
